A study of Mus musculus with 8 samples.

Results

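G2 and mitosis genes are described here as a fixed list of 42 mouse genes whose products carry cells from the end of DNA replication through division. The list was applied by gene symbol to RNA-seq data from LSK cells of the bone marrow, which lack lineage markers and carry Sca1 and Kit. Of the 47311 genes summed from the deposited transcript tables, all 42 listed genes were found, and all 42 passed the filter on low counts, the lowest having 1441 estimated counts in its lowest library. There were 8 libraries, each from 1 mouse. Asxl2 knockout (KO) mice over 1 year old gave 2 libraries, young KO mice of 8 to 12 weeks gave 2, old wild-type (WT) mice gave 2 and young WT mice gave 2. The labels give no allele, promoter or Cre for the knockout and no sex. The labels give 2 batches, with 1 mouse per group in each, and each KO mouse had a WT littermate of the same age and batch (4 litters). The design asked how loss of Asxl2, a partner of the histone H2A deubiquitinase Bap1, and age alter expression in these cells.

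Library totals ran from 45737972 to 80388500 estimated counts. Asxl2 itself was at 4.64 to 5.63 TPM in KO libraries and at 23.0 to 30.8 TPM in WT libraries, where TPM is a level scaled for transcript length and depth. The gate markers Kit (63.4 to 547 TPM), Ly6a (the gene of Sca1, 150 to 661 TPM) and Cd34 (476 to 1047 TPM) were present in every library, and Cd3e of T cells did not exceed 0.314 TPM. The old littermates of litter 1 were the only mice with Xist RNA above 1 TPM (3.33 TPM in the KO mouse and 3.61 TPM in the WT mouse). Libraries differed in how level depended on transcript length: over 9831 protein-coding genes above 5 TPM, the slope of log2 TPM on log2 effective length was -0.891 and -0.774 in old KO and -0.618 and -0.619 in young KO libraries, against -0.564 and -0.581 in old WT and -0.272 and -0.556 in young WT libraries. Since listed genes span 697 to 9805 bases of effective length (the length over which a read could start), the calls and counts over both ages and over both genotypes are given as fitted and after a length correction that set each library's values against genes of similar length.

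Entry into mitosis is driven by the kinase Cdk1 bound to cyclin A or cyclin B, switched on by Cdc25 phosphatases. Polo and Aurora kinases then build the spindle, kinesins and kinetochore proteins attach and move chromosomes, and the spindle checkpoint holds the anaphase-promoting complex (APC/C) until all are attached. The APC/C with its activator Cdc20 and its ubiquitin-conjugating enzyme Ube2c then destroys cyclin B, and the cell divides. Most of these genes are transcribed late in the cycle by the MuvB complex with B-Myb and FoxM1, through the cell cycle genes homology region (CHR, written TTTGAA or TTTAAA), often near CCAAT boxes bound by NF-Y. In the LSK gate the most primitive stem cells are mostly quiescent and the multipotent progenitors cycle more often.

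Promoters were read from RefSeq (GRCm38.p6, 250 bases before to 50 after each start), which held 36 of the 42 genes. TTTGAA on either strand was found in 75.0% of these 36 genes and in 17.9% of all 32851 promoters in the table, and CCAAT on either strand in 77.8% of the genes and 37.4% of promoters. TTTAAA was found in 25.0% of the genes and 13.2% of promoters. A CHR of either spelling together with CCAAT was held by 69.4% of the genes and 10.7% of promoters, and CCAAT occurred at least 2 times in 55.6% of the genes and 11.7% of promoters. Shares of genes count a gene once if any of its promoters matched. Counted by promoter, the 39 promoters of these genes held TTTGAA in 76.9%, TTTAAA in 23.1% and CCAAT in 79.5%. They held a CHR together with CCAAT in 71.8%, and at least 2 CCAAT in 56.4%. A match describes letters and does not show binding. The 6 sequences below show this shared layout in the promoters of both B cyclins, of Cdc20 and Plk1, and of Cdk1 and Ube2c, the last pair chosen because their RNA rose in KO cells. Each runs 5′ to 3′ on the gene's strand from 120 bases before to 30 bases after the start, and capitals mark TTTGAA or TTTAAA and CCAAT, or the same motifs read on the other strand.
Ccnb1: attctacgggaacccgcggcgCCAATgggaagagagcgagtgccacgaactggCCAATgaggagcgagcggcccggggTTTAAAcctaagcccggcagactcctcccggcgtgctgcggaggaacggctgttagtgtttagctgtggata
Ccnb2: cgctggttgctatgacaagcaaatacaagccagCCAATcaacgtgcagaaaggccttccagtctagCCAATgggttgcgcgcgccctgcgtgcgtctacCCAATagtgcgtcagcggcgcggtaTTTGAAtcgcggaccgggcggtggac
Cdc20: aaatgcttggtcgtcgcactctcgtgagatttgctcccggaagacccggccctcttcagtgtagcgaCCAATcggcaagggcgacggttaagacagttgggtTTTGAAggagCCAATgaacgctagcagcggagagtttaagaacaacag
Plk1: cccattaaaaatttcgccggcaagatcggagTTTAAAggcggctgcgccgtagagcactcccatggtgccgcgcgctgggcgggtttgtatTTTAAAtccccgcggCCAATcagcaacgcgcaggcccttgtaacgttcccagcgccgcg
Cdk1: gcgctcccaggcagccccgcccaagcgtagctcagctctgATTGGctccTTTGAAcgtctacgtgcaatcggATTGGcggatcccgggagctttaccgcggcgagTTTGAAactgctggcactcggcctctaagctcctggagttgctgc
Ube2c: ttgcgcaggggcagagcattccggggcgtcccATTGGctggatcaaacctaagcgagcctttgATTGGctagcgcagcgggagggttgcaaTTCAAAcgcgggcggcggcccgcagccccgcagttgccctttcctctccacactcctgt
In the Ccnb1 promoter (chr13:100786457-100786606, minus strand) CCAAT boxes began 99 and 67 bases before the start and TTTAAA 42 bases before it. In that of Ccnb2 (chr9:70421525-70421674, minus strand) CCAAT boxes began 87, 54 and 21 bases before the start. The Cdk1 window (chr10:69352883-69353032, minus strand) held TTTGAA 71 and 15 bases before the start, and the Ube2c window (chr2:164769809-164769958, plus strand) held the motif on the other strand 29 bases before it. The Cdc20 window lies at chr4:118437314-118437463 on the minus strand and the Plk1 window at chr7:122159315-122159464 on the plus strand. The Birc5 promoter, whose gene also rose in KO cells, held TTTAAA but neither TTTGAA nor CCAAT in its 300 bases.

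The listed genes were well expressed, with a mean level over the 8 libraries between 12.9 TPM for Anln and 328.7 TPM for Cdk1. Next in order came Ube2c (328.4 TPM), Cdc20 (296.6 TPM) and Birc5 (285.2 TPM), which differ by less than their spread over libraries, and the lowest after Anln were Cenpe (13.0 TPM) and Mki67 (14.9 TPM). Summed over the list, the level was 4021 and 5501 TPM in old KO libraries and 5122 and 5620 TPM in young KO libraries, against 5348 and 4055 TPM in old WT and 5311 and 5161 TPM in young WT libraries. The lowest sums were thus in 1 old KO and 1 old WT library, which came from different litters and batches. No listed gene separated KO from WT libraries, or old from young libraries, by its TPM alone. Over all 25543 genes tested, KO libraries lay entirely above WT libraries for 1.8% and entirely below for 8.08%, and old libraries lay entirely above young for 4.73% and below for 1.41%.

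**Figure D1:**
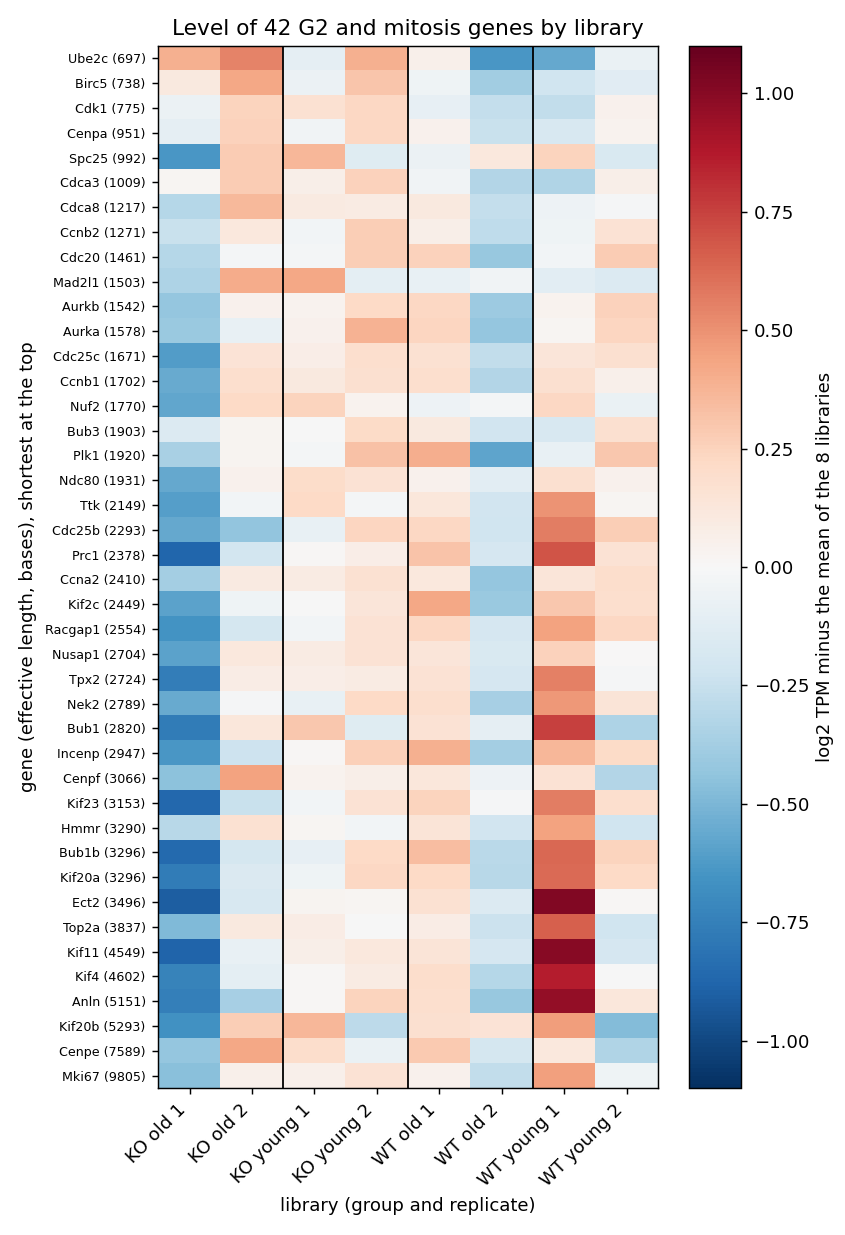
Each row is a listed gene, shortest effective length at the top, and each column a library; color gives log2 TPM minus the gene's mean over the 8 libraries. Most long genes in the lower rows are lowest in KO old 1 (Ect2 at 21.8 TPM) and highest in WT young 1 (Ect2 at 82.9 TPM), while Ube2c in the top row is higher in most KO columns.

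KO against WT over both ages. Ube2c, Cdk1 and Birc5 rose in KO cells, and 0 of the 42 listed genes fell. The test was edgeR's quasi-likelihood F test with genotype, age and batch as terms, adjusted by Benjamini and Hochberg over all genes tested (threshold 0.05). It called 3 of 42 listed genes higher (7.14%), against a background of 3.19% of the 25543 genes higher and 6.78% lower. The listed genes had a median log2 fold change (KO over WT) of 0.06, against -0.19 for the 9831 protein-coding genes above 5 TPM and 0.10 for all genes tested, and 24 of 42 were positive. In bulk RNA, fewer cells of a type and less RNA per cell cannot be told apart.

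Ube2c, the APC/C's ubiquitin-conjugating enzyme (ENSMUSG00000001403, chr2:164769898-164778822, plus strand, in mm10 as are all gene positions given here), had 415.0 and 460.1 TPM in old KO libraries and 294.3 and 413.4 TPM in young KO libraries, against 327.7 and 202.3 TPM in old WT and 213.3 and 300.9 TPM in young WT libraries. Only the lowest KO library lay within the WT range, and KO exceeded WT in all 4 litters. Its log2 fold change was 0.76 (SE 0.14, adjusted p = 0.0162 by edgeR). Cdk1 (ENSMUSG00000019942, chr10:69335146-69352938, minus strand) had 311.7 and 387.0 TPM in old KO libraries and 366.5 and 381.1 TPM in young KO libraries, against 305.7 and 271.4 TPM in old WT and 270.7 and 336.0 TPM in young WT libraries. KO was again the higher of each littermate pair, with a log2 fold change of 0.51 (SE 0.13, edgeR adjusted p = 0.0334). Birc5, the survivin subunit of the chromosomal passenger complex (ENSMUSG00000017716, chr11:117849251-117855743, plus strand), had 302.3 and 377.2 TPM in old KO libraries and 267.9 and 347.8 TPM in young KO libraries, against 272.0 and 215.1 TPM in old WT and 241.7 and 257.6 TPM in young WT libraries. The groups overlapped at 1 library each, KO was higher in all 4 litters, and the log2 fold change was 0.47 (SE 0.13, edgeR adjusted p = 0.0446).

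These 3 genes have the shortest effective lengths of the list (Ube2c 697, Birc5 738 and Cdk1 775 bases). The 14 shortest listed genes (697 to 1702 bases) held all 3 calls and all had positive fold changes, against 4.29% called higher among 3144 coding genes of that length range, while in the 14 longest (2947 to 9805 bases) 4 were positive and 0 passed. After the length correction none of the 3 passed (edgeR adjusted p = 0.0779 for Ube2c, 0.113 for Cdk1 and 0.332 for Birc5), with log2 fold changes of 0.49, 0.27 and 0.21. With litter as a block Ube2c (edgeR adjusted p = 0.0295) and Cdk1 (0.0449) passed and Birc5 did not (0.0648). No share over all genes is given for the counts in the rest of this paragraph, which stand without a background. The count of 3 was 0 without old KO replicate 2 or without old WT replicate 2, which are littermates, and 0 without the batch term. It was 1 (Ube2c) on leaving out any of old KO replicate 1, young KO replicate 1, old WT replicate 1 or young WT replicate 1, or the whole of litter 1. It was 4 without young KO replicate 2, with Ect2 and Kif23 then lower and Birc5 lost, and 5 without young WT replicate 2, with Cdca3 higher and Ect2 lower. Within batch 1 it was 0 and within batch 2 it was 2, Cdk1 and Ube2c.

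The length correction also brought other listed genes past the threshold. Bub3 (checkpoint), Mad2l1 (checkpoint), Cenpf (kinetochore), Hmmr (spindle), Mki67 (the Ki-67 proliferation marker) and Top2a (DNA topoisomerase) then rose in KO cells, with log2 fold changes between 0.41 and 0.55 and edgeR adjusted p from 0.0344 to 0.0499. Corrected for length, 41 of 42 listed genes were positive (all but Spc25) with a median of 0.25, against 0.15 for all genes tested and a background of 2.65% called higher. With litter as a block and the length correction together 0 of 42 passed; the 6 genes kept fold changes of 0.42 to 0.54, with edgeR adjusted p from 0.0538 (Bub3) to 0.0801 (Top2a). Counting protein-coding transcripts alone, 7 of 42 rose (Cdca3, Cdca8, Cenpa and Mad2l1 beside the 3 above), against a background of 8.38% called higher. Top2a had a log2 fold change of -0.08 before the correction and 0.42 after it.

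**Figure D2:**
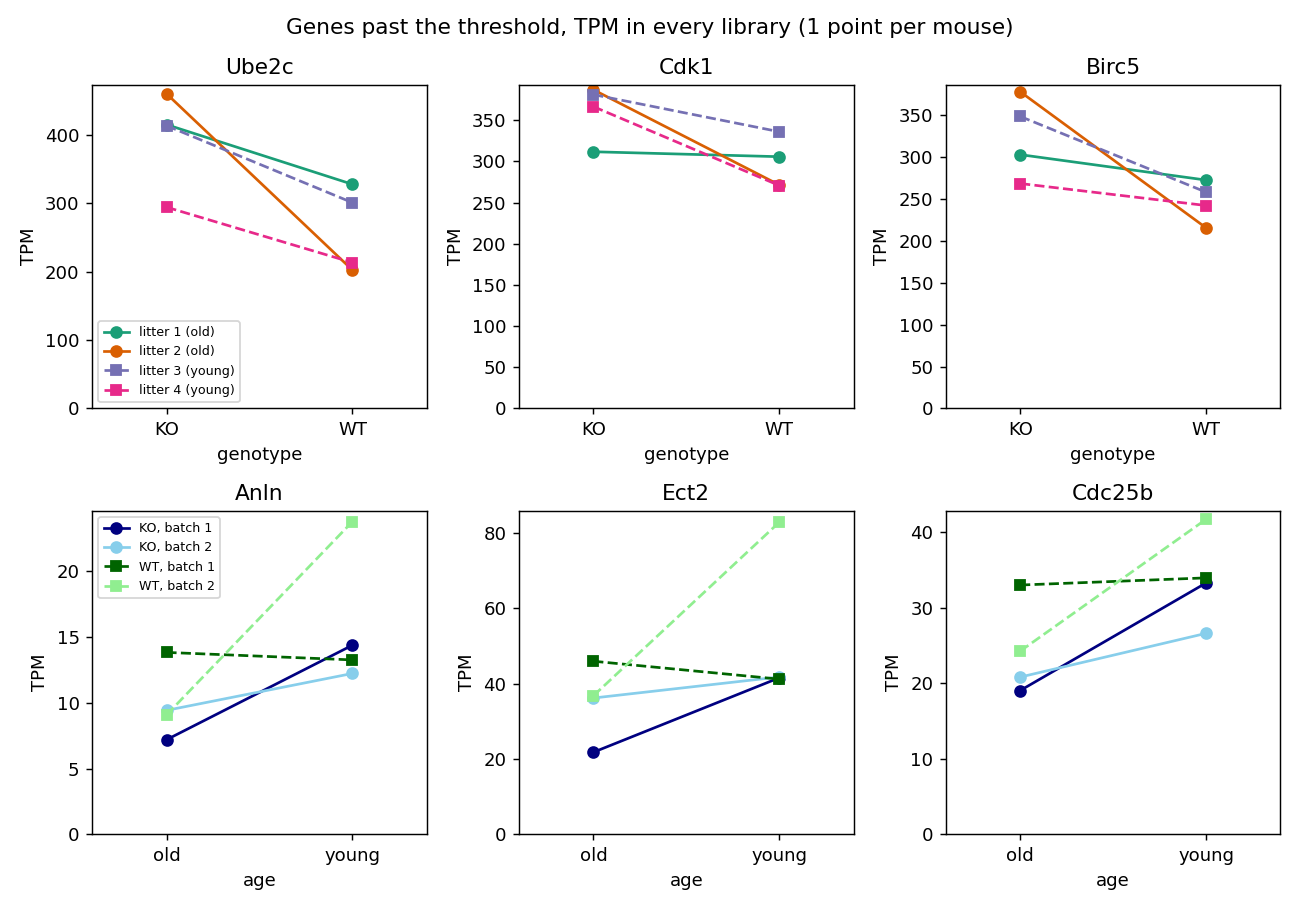
TPM of Ube2c, Cdk1 and Birc5 in KO and WT mice with littermates joined by a line (top), and of Anln, Ect2 and Cdc25b in old and young mice with mice of the same genotype and batch joined (bottom); each point is 1 mouse. In the top panels every line falls toward WT, and in the bottom panels the WT young mouse of batch 2 is the highest point, at 82.9 TPM for Ect2.

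By role, the genes of the cyclin and Cdk1 engine other than Cdk1 showed no call. Ccnb1, the cyclin B of mitotic entry, had 128.8 and 215.1 TPM in old KO libraries and 203.7 and 213.2 TPM in young KO libraries, against 214.9 and 151.2 TPM in old WT and 213.1 and 196.8 TPM in young WT libraries. Both genotypes had their lowest value in an old mouse and otherwise lay together (log2 fold change 0.13, SE 0.14). Ccna2, cyclin A, was lowest in the same 2 libraries, with 114.2 and 159.3 TPM in old KO libraries and 157.6 and 166.2 TPM in young KO libraries, against 160.7 and 110.7 TPM in old WT and 162.8 and 169.7 TPM in young WT libraries. Within the role Cdc25b, a Cdk1-activating phosphatase, was at the low end with a log2 fold change of -0.27.

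Of the mitotic kinases, 0 of 6 passed, and their fold changes lay between -0.13 (Nek2, a centrosome kinase) and 0.14 (Plk1). Plk1, the polo kinase, had 78.5 and 102.8 TPM in old KO libraries and 99.2 and 125.9 TPM in young KO libraries, against 132.6 and 67.4 TPM in old WT and 94.9 and 123.6 TPM in young WT libraries. Old WT mice held both the highest and the lowest Plk1 value. Aurka, the spindle pole Aurora kinase, had 89.2 and 111.7 TPM in old KO libraries and 122.1 and 154.8 TPM in young KO libraries, against 139.7 and 88.0 TPM in old WT and 119.9 and 139.8 TPM in young WT libraries. Aurkb, the passenger complex kinase, had 148.9 and 206.3 TPM in old KO libraries and 205.9 and 233.2 TPM in young KO libraries, against 234.8 and 151.9 TPM in old WT and 205.9 and 238.0 TPM in young WT libraries. Both Aurora kinases overlapped widely between genotypes, with log2 fold changes of 0.13 (SE 0.13) and 0.12 (SE 0.14).

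Among checkpoint genes Bub3 had 241.6 and 274.0 TPM in old KO libraries and 267.4 and 309.2 TPM in young KO libraries, against 289.3 and 232.0 TPM in old WT and 237.3 and 303.3 TPM in young WT libraries, which overlap. Mad2l1, which inhibits Cdc20, had the highest log2 fold change of this role (0.35, SE 0.13, edgeR adjusted p = 0.0958) and Bub1b the lowest (-0.30). The other passenger genes were Cdca8 (borealin) at 0.29 and Incenp, the scaffold, at -0.15. All 6 kinetochore genes had positive fold changes, from 0.07 for Ndc80 to 0.24 for Cenpa, the centromeric histone, and 0 passed. All 6 kinesins had negative ones, from -0.33 for Kif23 to -0.01 for Kif20b, and 0 passed. The kinesins are mostly long (2449 to 5293 bases), and after the length correction their median was 0.24.

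The remaining roles held no further call. Cdc20 had 235.0 and 288.2 TPM in old KO libraries and 288.3 and 352.3 TPM in young KO libraries, against 348.8 and 219.1 TPM in old WT and 285.9 and 355.1 TPM in young WT libraries, and the genotypes overlapped over nearly their whole range. Mki67 had 10.7 and 15.3 TPM in old KO libraries and 15.3 and 16.4 TPM in young KO libraries, against 15.2 and 12.2 TPM in old WT and 20.1 and 14.2 TPM in young WT libraries. Top2a had 98.2 and 147.9 TPM in old KO libraries and 145.4 and 136.7 TPM in young KO libraries, against 145.3 and 116.7 TPM in old WT and 217.0 and 118.2 TPM in young WT libraries. For both of these chromosome genes the highest value was a young WT library and the lowest an old KO library. Spindle genes ran from -0.28 (Prc1, the midzone bundler) to 0.04 (Nusap1), and the cytokinesis genes Ect2 (-0.44), Anln (-0.30) and Racgap1 (-0.20) were all negative without passing.

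Old against young over both genotypes. Of the 42 listed genes 9 fell in old mice and 0 rose. They were Anln, Ect2 and Racgap1, which act in cytokinesis, the kinesins Kif20a and Kif23 and the bundler Prc1 of the spindle midzone, the phosphatase Cdc25b, the checkpoint kinase-like Bub1b and the passenger scaffold Incenp. That is 21.4% of the list, against a background of 9.61% of all 25543 genes called lower, 4.34% called higher, and 22.8% called lower among protein-coding genes above 5 TPM. The median log2 fold change (old over young) was -0.32, against -0.28 for the 9831 protein-coding genes above 5 TPM and 0.15 for all genes tested, and 40 of 42 were negative. Beside genes of like length the share was not above background: 6 of the 14 longest listed genes fell, against 46.7% of 2281 coding genes of that length range, 3 of the middle 14 (1770 to 2820 bases) against 31.0% of 2970, and 0 of the shortest 14 against 3.59% of 3144.

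Anln, the actin-binding scaffold of the cleavage furrow (ENSMUSG00000036777, chr9:22332012-22389188, minus strand), had 7.19 and 9.42 TPM in old KO and 13.8 and 9.08 TPM in old WT libraries, against 12.2 and 14.4 TPM in young KO libraries and 23.8 and 13.3 TPM in young WT libraries. Ect2, the exchange factor that activates RhoA there (ENSMUSG00000027699, chr3:27097222-27153878, minus strand), had 21.8 and 36.2 TPM in old KO and 46.0 and 36.8 TPM in old WT libraries, against 41.8 and 41.6 TPM in young KO libraries and 82.9 and 41.2 TPM in young WT libraries. In both genes 1 old WT library lay among the young ones and 1 young WT library stood well above all others. The log2 fold changes were -0.73 for Anln (SE 0.18, edgeR adjusted p = 0.0302) and -0.67 for Ect2 (SE 0.17, edgeR adjusted p = 0.0341).

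Cdc25b (ENSMUSG00000027330, chr2:131186949-131198497, plus strand) had 19.1 and 20.8 TPM in old KO and 33.0 and 24.3 TPM in old WT libraries, against 26.6 and 33.3 TPM in young KO libraries and 41.8 and 34.0 TPM in young WT libraries. It was lower in the old mouse in all 4 pairs of the same genotype and batch, with a log2 fold change of -0.64 (SE 0.14, edgeR adjusted p = 0.0261). Kif20a (ENSMUSG00000003779, chr18:34624613-34633277, plus strand) had 39.9 and 60.7 TPM in old KO and 79.2 and 55.1 TPM in old WT libraries, against 65.9 and 79.5 TPM in young KO libraries and 104.6 and 78.9 TPM in young WT libraries. Old and young libraries overlapped, and the log2 fold change was -0.55 (SE 0.15, edgeR adjusted p = 0.0362).

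Bub1b, which encodes the checkpoint protein BubR1 (ENSMUSG00000040084, chr2:118598211-118641591, plus strand), had 38.9 and 61.5 TPM in old KO and 88.8 and 57.0 TPM in old WT libraries, against 66.0 and 81.6 TPM in young KO libraries and 108.6 and 83.2 TPM in young WT libraries (log2 fold change -0.55, SE 0.16, edgeR adjusted p = 0.0446). Prc1 (ENSMUSG00000038943, chr7:80294450-80316259, plus strand) had 68.2 and 109.0 TPM in old KO and 155.6 and 110.0 TPM in old WT libraries, against 126.2 and 131.9 TPM in young KO libraries and 202.4 and 139.3 TPM in young WT libraries (log2 fold change -0.49, SE 0.14, edgeR adjusted p = 0.0456). In both, 1 old WT library exceeded 3 of the 4 young ones. Exons of Kif20a overlap those of Cdc23 on the opposite strand, and exons of Prc1 those of Rccd1, so reads could be shared if the libraries did not keep strand, which the labels do not say. The other calls were Kif23 (log2 fold change -0.48, edgeR adjusted p = 0.0446), Incenp (-0.46, 0.0477) and Racgap1 (-0.43, 0.0440). Corrected for length, these 3 changed sign, to 0.03, 0.03 and 0.01.

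Among the listed genes that did not pass with age, Ccnb1 had a log2 fold change of -0.24 (SE 0.14) and Cdk1 of -0.14 (SE 0.13). Mki67 stood at -0.35 (SE 0.13, edgeR adjusted p = 0.0847), with 13.3 ± 2.27 TPM in old and 16.5 ± 2.58 TPM in young mice (SD, n = 4 each). The positive values were those of Ube2c (0.14, SE 0.14) and Cenpe (0.04, SE 0.15).

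After the length correction 0 of the 42 genes passed with age, and the other 6 of the 9 genes above stood between -0.25 (Cdc25b) and -0.02 (Bub1b and Kif20a). Of the 42, 25 were positive, and the median was 0.02, against 0.29 for all genes tested and a background of 0.168% called lower and 0.591% called higher. Counting protein-coding transcripts alone gave 0 calls as well, with a background of 5.58% called lower. No share over all genes is given for the counts in the rest of this paragraph, which stand without a background. The count of 9 was 0 without any of old KO replicate 1, old KO replicate 2, young KO replicate 2, old WT replicate 1 or young WT replicate 1, 3 without young KO replicate 1, 2 without old WT replicate 2 and 13 without young WT replicate 2. It was 0 without the batch term, 0 without litter 1, 0 within batch 1 and 3 within batch 2 (Anln, Ect2 and Kif11).

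**Figure D3:**
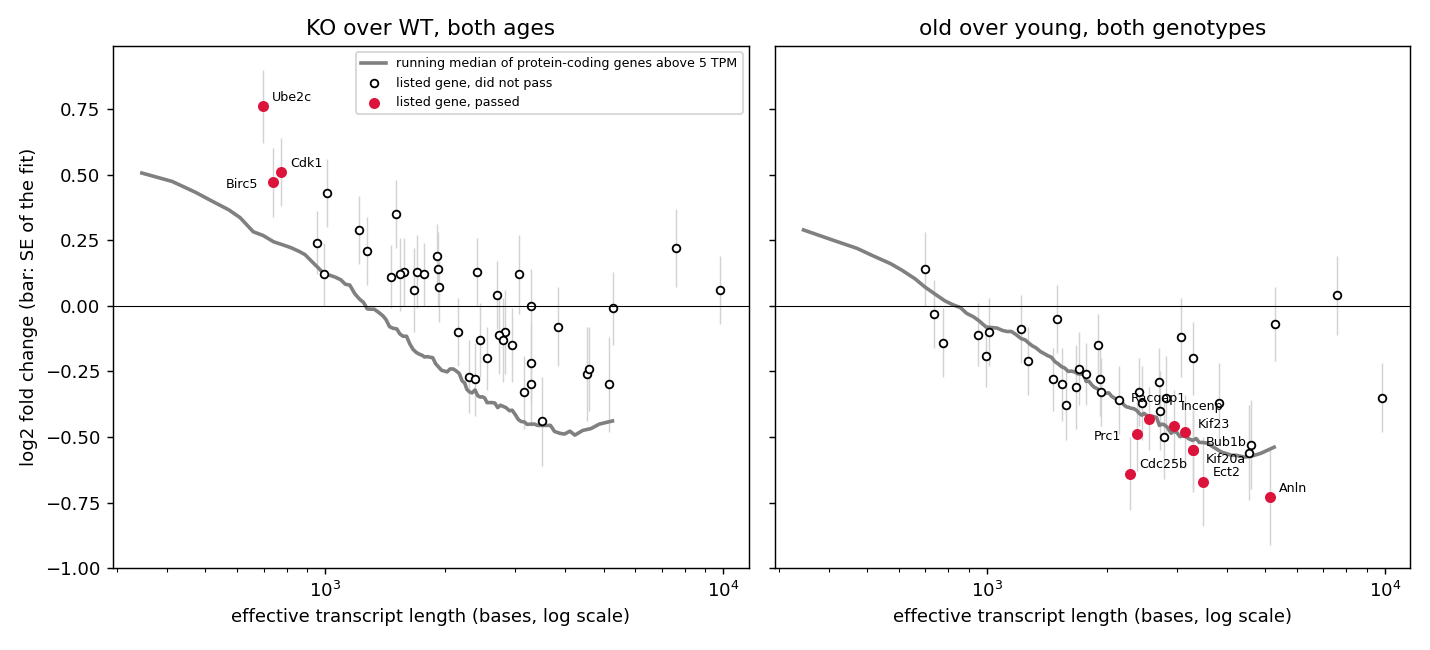
Log2 fold change of the 42 listed genes (points, with the SE of the fit) against effective length on a log axis, for KO over WT (left) and old over young (right); the grey line is the running median of protein-coding genes above 5 TPM. Genes that passed are filled: on the left the 3 shortest, on the right 9 genes of 2293 to 5151 bases, most of them close to the grey line.

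Fold changes of the listed genes declined with effective length in both comparisons. Spearman's rho over the 42 genes was -0.70 for KO over WT and -0.55 for old over young, and over the 9831 coding genes it was -0.63 and -0.65; the genes share libraries and are not independent, so these are descriptions. For KO over WT, 41 of 42 listed genes lay above the median of the 500 coding genes nearest in length, by a median of 0.25 on the log2 scale. For old over young 22 of 42 did, by a median of 0.02.

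Seen litter by litter, the listed genes did not move alike. KO over WT had a median log2 ratio over the list of -0.26 in litter 1 (old), 0.26 in litter 2 (old), 0.18 in litter 3 (young) and -0.05 in litter 4 (young). After the length correction these were -0.05, 0.64, 0.20 and 0.15, with 17, 42, 42 and 36 of 42 genes positive, litter 2 having the highest median and litter 1 a median just below 0. Before the correction 9 genes were higher in KO in all 4 litters, and 1 was higher in none. Old over young had medians of -0.60 in KO batch 1, -0.03 in KO batch 2, -0.22 in WT batch 1 and -0.36 in WT batch 2, and -0.14, 0.26, 0.11 and -0.24 after the correction. Before the correction, 21 of 42 genes were higher in the old mouse in none of these pairs. The counts of genes in this paragraph stand without a background, since no share over all genes or genes of like length is given. As fitted, coding genes above 5 TPM had a median log2 fold change of -0.28 for old over young and -0.19 for KO over WT.

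**Figure D4:**
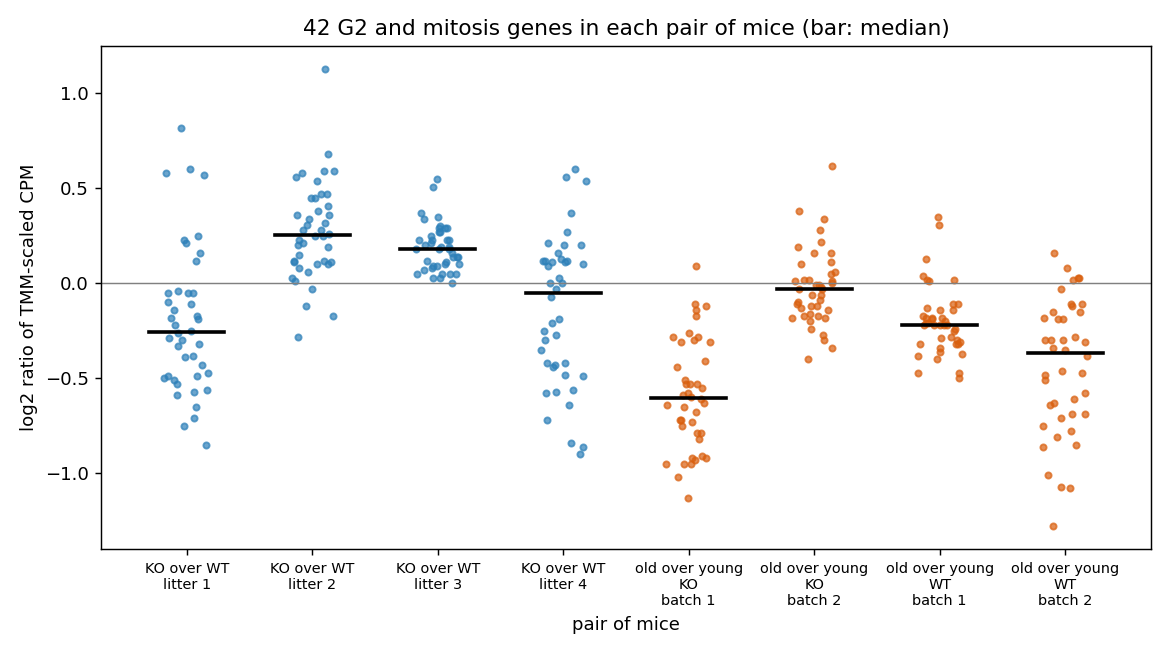
Log2 ratio of TMM-scaled CPM (counts scaled for depth) for each of the 42 listed genes, before the length correction, in 4 litters (KO over WT, left) and in 4 pairs of mice of the same genotype and batch (old over young, right); bars are medians. The list sits above 0 in litters 2 and 3 (medians 0.26 and 0.18), below 0 in litter 1 (-0.26), and below 0 in each age pair, most in KO batch 1 (-0.60).

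Within a given age or genotype, and for the genotype by age interaction, 0 of the 42 genes passed by edgeR, with 3 residual degrees of freedom. The background shares that follow are those of edgeR at adjusted p under 0.05. They are not a background for the DESeq2 counts or for the counts at unadjusted p. The share of all genes with an unadjusted p under 0.05 is not given. For KO over WT in old mice the background was 0.65%, 4 listed genes had an unadjusted p under 0.05, all higher, and Ube2c had a log2 fold change of 0.98 (SE 0.20, adjusted p = 0.0513); DESeq2 called 4 genes there (Birc5, Cdca3, Cdk1 and Ube2c). For KO over WT in young mice the background was 0.0626%, 1 listed gene had an unadjusted p under 0.05, Ube2c stood at 0.54 (SE 0.20), and DESeq2 called 0. For old over young the background was 0.0861% in KO and 0.0861% in WT mice, 9 and 6 listed genes had an unadjusted p under 0.05, all lower, and DESeq2 called 2 in KO mice (Cdc25b and Kif23) and 0 in WT mice. For the interaction the background was 0.00391%, 0 listed genes had an unadjusted p under 0.05, and DESeq2 called 0; for Ube2c the difference of the 2 genotype effects was 0.44 (SE 0.28).

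Other genes of the same pathway were read from 6 lists chosen, like the 42 genes, with earlier results of these data known. Among the protein-coding genes above 5 TPM, 3.83% were called higher and 14.6% lower for KO over WT. For old over young 1.12% were called higher and 22.8% lower. These shares and those of all genes tested (3.19% and 6.78% for genotype, 4.34% and 9.61% for age) are the background for the counts as fitted that follow. For counts after the length correction, the background over all genes tested was 2.65% higher and 2.17% lower for genotype. For age it was 0.591% higher and 0.168% lower. Of 14 regulators of the MuvB and FoxM1 programme, 0 passed for KO over WT (median -0.13) and 7 fell with age (median -0.47), and after the length correction 0 passed in either comparison (medians 0.18 and -0.12). Foxm1, which activates many listed genes, had 16.1 ± 6.15 TPM in old and 30.3 ± 11.5 TPM in young mice (SD, n = 4 each), with a log2 fold change of -0.94 (SE 0.19, edgeR adjusted p = 0.0219) that became -0.45 (adjusted p = 0.0978) after the length correction. E2f8, an E2F that represses transcription, had a log2 fold change with age of -0.77 (edgeR adjusted p = 0.0214), which became -0.25 (adjusted p = 0.123) after the correction.

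Of 10 genes that control Cdk1, 2 rose and 1 fell in KO cells and 7 fell with age. Cks2 (214.1 ± 47.1 TPM in KO and 141.8 ± 15.8 TPM in WT) and Cks1b (453.0 ± 71.1 TPM in KO and 309.2 ± 43.0 TPM in WT), small Cdk-binding subunits, had log2 fold changes of 0.72 and 0.69 (SD, n = 4 each; edgeR adjusted p = 0.0181 and 0.0203) and are short (422 and 576 bases). Wee1, the kinase that inhibits Cdk1, fell in KO cells by 0.50 (edgeR adjusted p = 0.0336) and with age by 0.70 (edgeR adjusted p = 0.0198). After the length correction 0 of the 10 passed in either comparison, with log2 fold changes of 0.25 for Cks2 and 0.34 for Cks1b (KO over WT) and of -0.34 (KO over WT) and -0.43 (old over young) for Wee1.

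Of 45 further G2 and mitosis genes, with a median effective length of 2383 bases, 0 passed for KO over WT (median -0.05) and 14 fell with age (median -0.39); among coding genes of the middle length range given above, 31.0% were called lower with age. With the length correction 6 of the 45 rose in KO cells (median 0.20) and 0 passed with age (median -0.02). Of 12 APC/C subunits 2 fell in KO cells (Cdc23 and Anapc2, each by 0.47) and 4 with age, but after the length correction 0 were called lower in either comparison. Cdc23 and Anapc2 stayed negative for KO over WT (-0.15 and -0.14), and the calls that appeared were of other subunits. Anapc10 and Cdc27 were then called higher in KO cells (log2 fold changes 0.67 and 0.44, edgeR adjusted p = 0.023 and 0.0386), and Anapc10 in old mice (0.78, edgeR adjusted p = 0.0244). Of 28 S phase genes 5 rose in KO cells, among them Tyms (467.0 ± 31.4 TPM in KO and 318.0 ± 44.2 TPM in WT, SD, n = 4 each; log2 fold change 0.56, edgeR adjusted p = 0.0236), which makes thymidylate for DNA synthesis, and 13 fell with age, among them the replicative helicase gene Mcm2 (by 0.72, edgeR adjusted p = 0.0173). With the length correction 3 S phase genes rose in KO cells and 0 passed with age; Tyms then stood at 0.27 (edgeR adjusted p = 0.119) and Mcm2 at -0.23 (edgeR adjusted p = 0.17).

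Of 17 quiescence genes 1 rose and 6 fell in KO cells, and 1 rose and 4 fell with age. Corrected for length, 1 rose and 3 fell in KO cells (background 2.65% and 2.17% of all genes tested) and 0 passed with age. Cdkn1c, which encodes the Cdk inhibitor p57 of quiescent stem cells, had 38.2 ± 7.72 TPM in KO and 88.8 ± 12.5 TPM in WT mice (SD, n = 4 each), a log2 fold change of -1.03 (SE 0.19, edgeR adjusted p = 0.0167) that was -1.13 (adjusted p = 0.0124) after the length correction. Rbl2, the pocket protein p130 that represses cell cycle genes in resting cells, fell by 1.10 and passed with the length correction too (log2 -0.60, edgeR adjusted p = 0.0231). Cdkn1a, the Cdk inhibitor p21, rose in KO cells by 0.91 and in old mice by 1.32 (edgeR adjusted p = 0.0325 and 0.0185). After the length correction the values were 0.61 (adjusted p = 0.176) in KO cells and 1.30 (adjusted p = 0.0628) in old mice, so that with age the size held while the adjusted p crossed the threshold.

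Marker genes of other cell populations of the gate also differed in level between the groups, but bulk RNA does not measure cell shares. The summed level of 12 stem cell identity genes was 508 to 887 TPM in KO and 894 to 1444 TPM in WT libraries, with 4 of 12 genes called lower and 1 higher in KO cells (2 lower and 1 higher after the length correction). The 13 erythroid genes summed to 1418 to 2366 TPM in KO and 1770 to 2861 TPM in WT libraries, with 8 called lower in KO cells (3 after the correction). The 7 mast cell genes summed to 43.5 to 198 TPM in KO and 76.0 to 330.2 TPM in WT libraries, with 5 called lower in KO cells (4 after the correction), and 3 of the 6 gate genes were called higher and 2 lower (1 higher and 0 lower after the correction). The background shares called lower in KO cells as fitted were the 6.78% and 14.6% given above. With the correction, 2.17% of all genes tested were called lower and 2.65% higher in KO cells. With age these corrected shares were 0.168% lower and 0.591% higher. The 7 neutrophil genes ranged from 52.0 to 1476 TPM in KO and from 8.35 to 1027 TPM in WT libraries, with 0 calls, and none of these genes was at 0 in all libraries. With age, 3 stem cell identity genes, 6 erythroid genes and 3 gate genes were called lower and 2 of 7 megakaryocyte genes higher, against 22.8% of coding genes above 5 TPM called lower and 1.12% higher; after the correction 1 erythroid gene was called lower and 2 megakaryocyte genes, 1 stem cell identity gene and 1 gate gene were called higher. As fitted, 1 megakaryocyte gene was also called higher in KO cells and 1 mast cell gene higher with age, and 4 other marker lists had 1 or 2 calls in a comparison. The part of these populations in the results for the listed genes was not tested.

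Over the 8 libraries, most listed genes varied together. The Pearson correlation of a gene's level with the rest of the list was highest for Ccna2 (0.95), followed by Nek2, Nusap1, Mki67 and Cdc25c (0.92 each), and lowest for Kif20b (0.01), Mad2l1 (0.06) and Ube2c (0.14). Cdk1 and Birc5, the other genes that rose in KO cells, stood at 0.36 each. Ube2c, Birc5 and Cdk1 are the shortest listed genes (697, 738 and 775 bases), while Kif20b is long (5293 bases). Length slopes differed between libraries, and the part of length in these correlations was not tested. Outside the lists, the genes whose log2 CPM followed the log2 summed CPM of the list most closely over 8 libraries were Kif24 (Pearson 0.964), Tacc2 (0.949), B3gnt7 (0.943), Chsy1 (0.928) and Mapkapk2 (0.914). These values share libraries and depth and are given as descriptions.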

How the data were processed

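RNA with polyA tails from 8 mice was extracted with an RNeasy Micro kit and made into libraries with a SMART-Seq v4 kit, per the labels' protocols. The submitters' processing notes name kallisto, mm10 and DESeq2. The deposited tables give estimated counts, TPM and effective length for 115088 transcripts, per the file headers. Of these, 114200 matched the GENCODE vM21 annotation (47311 genes); the 888 others held 0.259% to 0.470% of counts and were left out. For each gene, the deposited estimated counts were added up and rounded to whole numbers, and the deposited TPM were added up.

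Genes were filtered with filterByExpr (minimum count 10, minimum total 15; 25543 kept), scaled by TMM and tested with edgeR 4.0.16 in R 4.3.3. The effects over both ages or genotypes were fitted with terms for genotype, age and batch, leaving 4 residual degrees of freedom, the others with 4 groups and batch, leaving 3. Alternatives used limma 3.58.1 and DESeq2 1.42.0. The length correction gave each library an offset, the running median of 500 coding genes (above 5 TPM) nearest in length. Replicates are separate mice, numbered in accession order. At this depth counting error is small beside the spread between mice. The labels pair littermates. Between littermates, deviations from group means correlated at 0.06 (old) and 0.12 (young) over all genes, and at 0.42 and 0.49 over the listed genes. Within each age, litter and batch are the same split, so these values cannot tell litter from batch.

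All 42 genes are accounted for; those given in full are 12 well-known genes plus, per comparison, up to 6 further genes with the largest change among those that passed. The members and lists were chosen with earlier results of these data known. Python 3.11.15 was used for summaries.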

Additional observations from a re-analysis of the deposited data

Results flagged for a closer look

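Of 76 groups of 4 libraries examined (18 listed genes and the summed list, in KO, WT, old and young mice), 5 held a library far from the other 3, by a gap to its nearest neighbour that was a large share of the group's range. Chance flags about 1 group in 20. Among KO libraries, Ccnb1 was at 128.8 TPM and Ccna2 at 114.2 TPM in old replicate 1, each below the other 3. Among WT libraries, Ccna2 was at 110.7 TPM and the summed list at 4055 TPM in old replicate 2, again below the other 3. Among young libraries, Ect2 was at 82.93 TPM in WT replicate 1, above the other 3. Old KO replicate 1 has the steepest and young WT replicate 1 the flattest slope of log2 TPM on log2 length (-0.891 and -0.272); the part of this in the flagged values was not tested.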

How the results depend on the processing

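Limits are the 2 mice per group, and length slopes that differ between libraries. The labels give no sex, and only the old mice of litter 1 had Xist RNA above 1 TPM, so sex may not be balanced between old and young mice. Its part in the age results was not tested. Each listed gene had at least 1441 estimated counts in every library. For KO over WT the count of 3 listed genes became 1 with limma on log2 TPM (pseudocount 1 or 0.1), 6 with the length correction, 7 with protein-coding transcripts alone, 0 without the batch term, 0 with litter as a replicate block and length correction together, 0 within batch 1, and 1 without litter 1 (an alternative chosen after seeing the data); leaving out a replicate gave 0 to 5. For old over young the count of 9 became 14 without a filter, 0 with limma at either pseudocount, with the length correction, with protein-coding transcripts, without the batch term, within batch 1 and without litter 1, and 3 within batch 2; leaving out a replicate gave 0 to 13. For KO over WT in old mice the count of 0 became 4 with DESeq2, 1 without a filter, 4 with protein-coding transcripts, and 0 to 1 without a replicate. For old over young in KO mice it became 2 with DESeq2, 4 without a filter, and 0 to 4 without a replicate, and in WT mice 0 to 4 without a replicate. For KO over WT in old mice, protein-coding transcripts gave 3.05% of 16964 genes called higher and 4.1% lower. The main fit gave 0.204% and 0.446% of 25543 there. Shares over all genes are given only for the main fit, the length correction and protein-coding transcripts alone. The counts of every other alternative, leaving out a replicate included, stand without a background. Whether calls over all genes changed alike in those alternatives is not given. Young KO over WT and the interaction stayed at 0 in all alternatives run, leaving out a replicate included. Litter as a replicate block alone left 2 calls for KO over WT (Cdk1 and Ube2c), ended that of Birc5 and changed no other call; it could not be run for age, since littermates share their age. Within a batch the other 5 comparisons leave 1 mouse per group and were not run. Ube2c passed in 15 of 21 alternatives (edgeR, limma or DESeq2 adjusted p from 4.86e-05 to 0.597), Cdk1 in 8 and Birc5 in 5, all with the same sign. Anln passed in 7 of 19 alternatives, and Cdc25b and Ect2 in 6 each. Top2a turned to 0.42 with the length correction for KO over WT. Among the genes given in full that did not pass, the sign differed from the main one in 53 of 315 values for KO over WT and in 23 of 228 for age.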

Other observations

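Transcripts that do not code for full protein took different shares of the listed genes. Protein-coding transcripts held 84.8% to 89.6% of the summed TPM of the 42 genes in the 8 libraries, but for Cenpa, the centromeric histone, they held 22.4% of TPM in KO and 22.2% in WT libraries (means, n = 4 each), and transcripts annotated as targets of nonsense-mediated decay held 73.0% in KO and 69.1% in WT libraries. For Mad2l1, 45.9% of TPM lay on a transcript with a retained intron in KO and 45.9% in WT libraries. Counting protein-coding transcripts alone, both genes passed for KO over WT, with log2 fold changes of 0.45 for Cenpa (edgeR adjusted p = 0.0429) and 0.48 for Mad2l1 (edgeR adjusted p = 0.0321).

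Exons of 9 listed genes overlap those of a gene above 1 TPM on the opposite strand. The most expressed partners were Elovl1 (215 TPM, beside Cdc20), Cdc23 (124 TPM, beside Kif20a), Pdzd11 (88.5 TPM, beside Kif4) and Exosc9 (70.4 TPM, beside Ccna2). Pseudogenes named for listed genes were at 0.16 TPM (Ccnb1-ps), 1.47 TPM (Ccnb2-ps) and 0.736 TPM (Kif4-ps).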
